A study of Mus musculus with 16 samples.

Results

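TEC models are gene models kept apart until an experiment supports them, and 1895 of the 50578 genes in the deposited mouse annotation carried TEC as their gene biotype. They were chosen by that biotype on all chromosomes, with no measured value used. The annotation belongs to a study of mouse bone-marrow-derived macrophages, that is, macrophages grown from marrow for 7 days with the growth factor M-CSF at 50 ng per ml. Lipopolysaccharide (LPS), a bacterial cell wall component sensed by TLR4, was the stimulus. RNA-seq of wild-type (WT) C57BL/6 cells covered 3 LPS and 3 untreated samples, and ribosome profiling of WT C57BL/6 cells, labelled CHX, covered 2 LPS and 2 untreated samples. RiboTag sequencing covered 2 samples at 6 h of LPS, 2 at 24 h of LPS and 2 untreated samples. RiboTag cells came from LysM-Cre x RiboTag animals, in which Cre under the myeloid lysozyme promoter switches on a tagged ribosomal protein, and the untreated RiboTag cells carried the same alleles. The age of the animals and, for RNA-seq and ribosome profiling, the time in LPS are not given per sample in the labels. Values per library were not analysed here, so depth is unknown, macrophage markers were not checked and no TEC model is described as expressed or changed by LPS.

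The TEC class was made by the manual annotators of the mouse genome for places where cDNA or EST reads, usually with signs of a polyadenylated end, pile up without splicing. Such a pile can be a real single-exon RNA, the end of a longer transcript, or copied from unspliced RNA or from genomic DNA, and the label leaves that question to later experiments. In a study that looks for translation outside known coding genes, these models are places where footprint reads can be assigned to a gene that carries no annotated reading frame. None of the 1895 TEC models had a CDS line of its own in the file.

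RefSeq is a second and separately curated set of gene models. TEC models were matched to its genes by ID, current symbol or own symbol. For 52 TEC models the matched gene had a start site on the same strand. The nearest one lay at exactly the TEC start in 9 of them. Starts of RefSeq genes with other names were not counted. The windows printed here are those of 5 models with a start at the same base and of Flg, whose RefSeq start lay 23 bases inside the TEC model, chosen after their values were seen to show how unlike these starts are. Each window is from RefSeq on GRCm38.p6, runs 5′ to 3′ over 300 bases, and has the start site as base 251. Capitals mark TATAAA or its reverse complement TTTATA, which overlap where TTTATAAA occurs, and CCAAT or its reverse complement ATTGG.
1700001G17Rik, chr1:33669574-33669873, plus strand: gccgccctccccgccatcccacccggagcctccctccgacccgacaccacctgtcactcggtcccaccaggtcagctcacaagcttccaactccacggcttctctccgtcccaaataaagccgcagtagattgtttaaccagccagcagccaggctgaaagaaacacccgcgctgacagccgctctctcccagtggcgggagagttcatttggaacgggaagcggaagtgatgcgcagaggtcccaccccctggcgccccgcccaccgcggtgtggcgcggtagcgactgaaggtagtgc
RP23-7E4.9, chr5:45669659-45669958, minus strand: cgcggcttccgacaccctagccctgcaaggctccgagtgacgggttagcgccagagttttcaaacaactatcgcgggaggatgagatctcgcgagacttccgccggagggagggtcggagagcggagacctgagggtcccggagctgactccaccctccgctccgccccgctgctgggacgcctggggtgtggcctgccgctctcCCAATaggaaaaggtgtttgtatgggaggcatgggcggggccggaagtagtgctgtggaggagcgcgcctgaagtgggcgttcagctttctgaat
E530011L22Rik, chr9:121759894-121760193, minus strand: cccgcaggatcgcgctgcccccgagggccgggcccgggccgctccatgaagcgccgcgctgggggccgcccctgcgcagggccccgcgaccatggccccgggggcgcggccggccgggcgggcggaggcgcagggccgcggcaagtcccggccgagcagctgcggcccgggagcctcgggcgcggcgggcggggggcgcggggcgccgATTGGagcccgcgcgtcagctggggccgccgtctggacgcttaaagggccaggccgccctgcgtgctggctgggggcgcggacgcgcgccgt
AY702102, chr2:169963138-169963437, minus strand: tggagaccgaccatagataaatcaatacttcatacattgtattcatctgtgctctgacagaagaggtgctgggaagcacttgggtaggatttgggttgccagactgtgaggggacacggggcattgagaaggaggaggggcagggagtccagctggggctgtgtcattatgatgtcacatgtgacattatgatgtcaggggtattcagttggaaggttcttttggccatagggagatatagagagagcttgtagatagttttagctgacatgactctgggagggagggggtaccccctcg
Gm20172, chr1:25277905-25278204, minus strand: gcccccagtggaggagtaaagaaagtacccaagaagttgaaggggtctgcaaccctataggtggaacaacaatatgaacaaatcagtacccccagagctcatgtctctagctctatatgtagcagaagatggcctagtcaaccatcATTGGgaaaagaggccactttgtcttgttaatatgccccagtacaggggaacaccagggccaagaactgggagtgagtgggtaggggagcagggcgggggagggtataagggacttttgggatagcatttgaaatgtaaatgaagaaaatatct
Flg, chr3:93273296-93273595, plus strand: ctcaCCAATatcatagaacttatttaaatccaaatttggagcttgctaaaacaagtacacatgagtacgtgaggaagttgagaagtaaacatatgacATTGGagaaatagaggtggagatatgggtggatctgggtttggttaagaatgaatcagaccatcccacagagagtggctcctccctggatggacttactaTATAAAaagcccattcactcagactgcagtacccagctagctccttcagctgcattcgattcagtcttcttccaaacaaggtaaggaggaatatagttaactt
The 1700001G17Rik window held 23 CpG dinucleotides, the RP23-7E4.9 window 25 and the E530011L22Rik window 51, with GC contents of 64.3%, 64.0% and 84.0%. These 3 models point away from a coding gene that starts close by on the other strand. 1700001G17Rik started 29 bases from Prim2, the large subunit of DNA primase, E530011L22Rik 90 bases from the zinc finger gene Zfp651, and RP23-7E4.9 211 bases from Ncapg, a subunit of condensin. AY702102 had 3 CpG dinucleotides and a GC content of 49.7%, and Gm20172, which lies in an intron of Adgrb3, had 1 CpG and 47.7%. Flg had 2 CpG and 41.0%, with TATAAA beginning 53 bases before the RefSeq start.

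Of these 52 matched models, 15 had a RefSeq start within 50 bases. Over the 15, the median GC content was 52.0% and the median CpG number 11. The values were 48.3% and 4 in all 11588 lncRNA windows and 56.3% and 13 in all 21262 protein-coding windows. TATAAA or TTTATA was found in 3 of the 15 windows (20%), against 13.6% of all 32851 windows, and CCAAT or ATTGG in 7 of the 15 (46.7%), against 37.4% of all windows. With 15 windows these shares cannot be told from the share over all windows, and a match is only a run of letters. Most of the 52 models did not share a start with RefSeq. The nearest start of the matched RefSeq gene was over 50 bases upstream of the TEC start in 33 models. It was over 1000 bases upstream in 25, against 4 in which it was over 50 bases downstream. The farthest was that of Kantr, a long non-coding RNA gene beside Kdm5c, whose RefSeq start lay 31189 bases upstream of its TEC model on chromosome X.

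**Figure D1:**
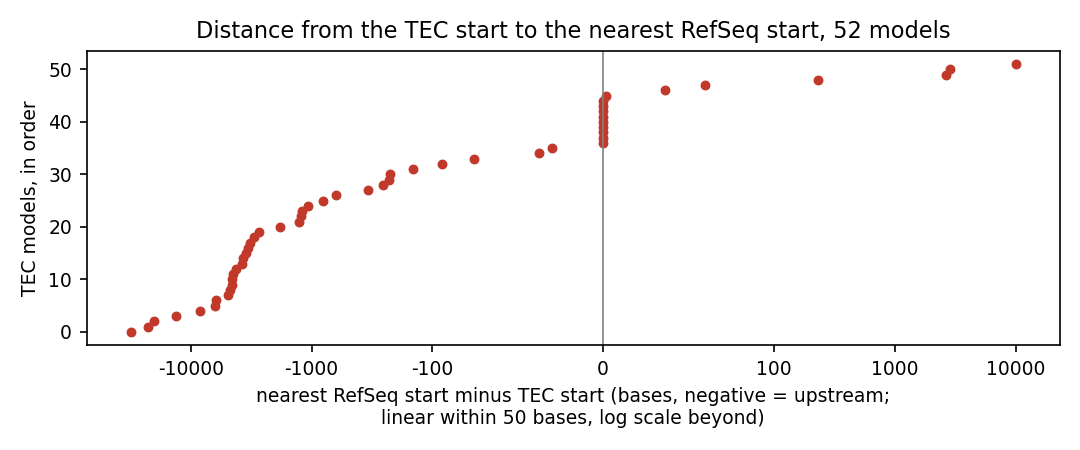
Distance in bases from the TEC start to the nearest same-strand start of the RefSeq gene matched by ID or symbol (x axis). The axis is linear within 50 bases and logarithmic beyond. The 52 TEC models are shown as 1 point each, in order of distance (y axis). The column of 9 points at 0 is the models with the same start, and 33 points lie over 50 bases to the left.

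Nearly every TEC model was a single block. A single exon was annotated in 1823 of the 1895 (96.2%, 95% Wilson interval 95.2 to 97.0, which like all intervals here covers counting error only), against 120 of 239 sense intronic genes (50.2%) and 212 of 3413 lincRNAs (6.21%). Sense intronic genes are long non-coding genes inside a coding gene's introns on its strand, and lincRNAs are long non-coding genes set apart from coding genes. The 72 TEC models with several exons had 2 exons in 56 cases, 3 in 12, 4 in 3 and 5 in 1. One transcript per gene was given in 1866 models and more than 1 in 29. The strands were even, with 954 models on the plus and 941 on the minus strand. The source was havana, the manual annotation, for 1839 and ensembl_havana for 56. Without an intron, no spliced read can be assigned to the 1823 single-exon models.

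TEC models were longer than the other non-coding classes. Spliced length, the exon bases of the longest transcript, had a median of 1899 bases in TEC models (quartiles 999.5 and 2807.5), against 1072 in sense intronic genes, 1241.5 in the 212 single-exon lincRNAs, 1042 in all lincRNAs and 2549 in the 22159 protein-coding genes. Over 1000 bases were found in 1420 TEC models (74.9%, 72.9 to 76.8), against 53.1% of sense intronic genes (46.8 to 59.4), 57.1% of single-exon lincRNAs (50.3 to 63.6) and 51.5% of lincRNAs (49.8 to 53.1). The TEC interval does not overlap those of the other 3 classes. The interval between 2000 and 3000 bases held 521 TEC models, 27.5% of them, and only 32 (1.69%) were at most 200 bases long.

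**Figure D2:**
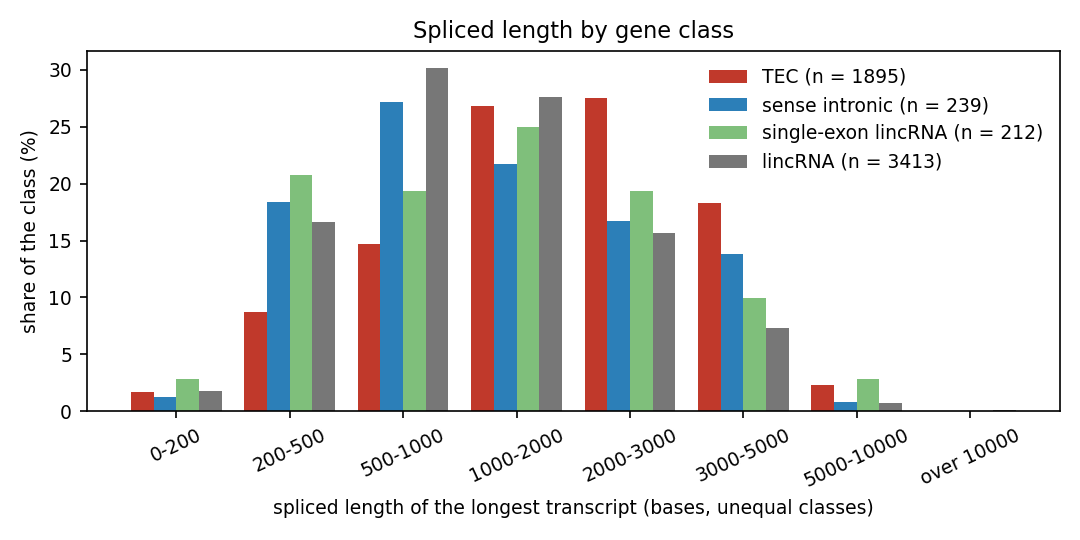
Share of each gene class in percent (y axis) by class of spliced length in bases (x axis, classes of unequal width), for TEC models, sense intronic genes, single-exon lincRNAs and all lincRNAs. TEC bars exceed the others from 2000 to 5000 bases.

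The extremes were few. Gm37985 on chromosome 4 (chr4:12597388-12671843, plus strand, mm10) was listed as a single exon of 74456 bases, and no other TEC model passed 10000 bases. Next came Gm37899 on chromosome 12 (chr12:109668869-109677585) and RP23-204I16.3 on a patch sequence, each with 8717 bases. Gm37899 lies in the imprinted region that runs from Dlk1 to the Meg3, Rian and Mirg RNAs, where long RNAs made from the maternal copy carry many snoRNAs and miRNAs. It stood 7152 bases after Rian and 52178 bases before Mirg on the same strand, and it covered the whole 82-base snoRNA gene Gm23347. The patch model also shared 82 bases, with a gene named SNORD113. It lay at 109669377-109678093 of the patch on the same strand as Gm37899. The 2 models may therefore be 1 locus listed on 2 sequences, which was not tested. At the short end, Gm37508 had 43 bases in the first intron of Lsamp, a neuronal cell adhesion gene, and Gm37235 had 59 bases in the first intron of Kcnq1, a potassium channel gene. Gm37386 had 72 bases in 2 exons spread over 15726 bases of chromosome 4.

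The several-exon models were a different kind of model under the same biotype. Their median spliced length was 544.5 bases over a median span of 3410 bases (n = 72), against 1999 bases for single-exon TEC models (n = 1823). Only 2 of the 72 (2.78%, 0.765 to 9.57) overlapped a coding gene on the same strand, against 47.6% of the single-exon models (45.3 to 49.9). Most exons were given for Gm37004 on chromosome 2, with 5 exons summing to 683 bases over 126180 bases, Gm38343 on chromosome 4, with 4 exons and 1060 bases over 100142, and Gm38256 on chromosome 1, with 4 exons and 950 bases over 200934. None of the 3 lay in a coding gene's span.

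TEC models were concentrated on 4 chromosomes. Chromosome 5 held 500, chromosome 1 held 477, chromosome 3 held 320 and chromosome 9 held 149, which sum to 1446 of 1895 (76.3%, 74.3 to 78.2), although these chromosomes held 21.1% of protein-coding genes. The other 17 chromosomes held 446 and patch sequences 3. Per 100 protein-coding genes there were 31.0 TEC models on the 4 chromosomes, with 12.2 to 40.2 on each, against 2.58 on the others, with 0.706 to 5.61 on each. The 4 were picked after the counts were seen. Sense intronic genes numbered 6.55 per 100 coding genes on chromosome 3, 3.12 on chromosome 5 and 2.61 on chromosome 1, against 0.909 at most on any other chromosome, with chromosome 9 at 0.898. On chromosome 3, 45 of the 66 lay between 100 and 110 Mb, where there were 11 TEC models, and the rest of that chromosome had 2.40 per 100.

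**Figure D3:**
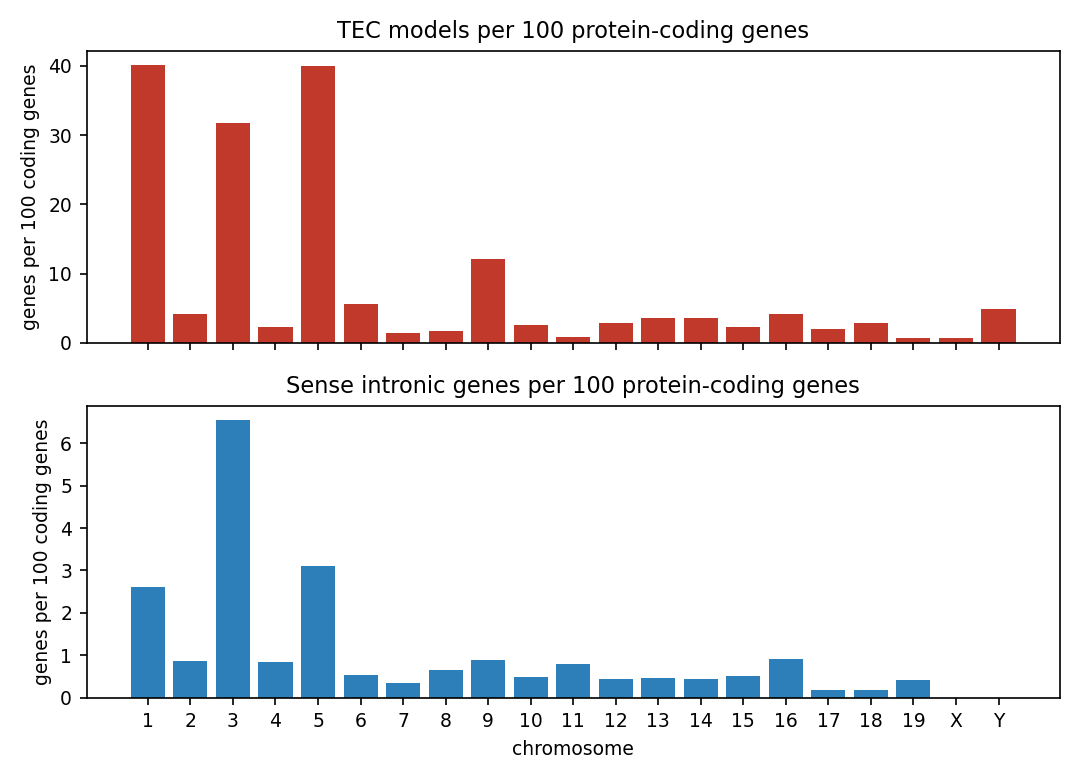
Number of TEC models (upper panel) and of sense intronic genes (lower panel) per 100 protein-coding genes (y axes) on each chromosome (x axis). TEC bars reach 40.2 on chromosome 1, 39.9 on chromosome 5, 31.8 on chromosome 3 and 12.2 on chromosome 9, and at most 5.61 elsewhere.

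The edges of the concentration did not follow whole chromosomes. The first 70 Mb of chromosome 9 held 18 TEC models among 716 coding genes (2.51 per 100), and the stretch from 70 to 130 Mb held 131 among 509 (25.7 per 100). On chromosome 2, the 10 Mb from 10 to 20 Mb held 36 of its 77 models, among 49 coding genes (73.5 per 100), against 38 models among 1744 coding genes from 20 to 190 Mb (2.18 per 100). These stretches too were chosen after the counts were seen. On chromosome 1 every 10 Mb bin held at least 5 models.

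The kind of name differed between chromosomes. Symbols of the form Gm and a number named 1020 TEC models, BAC clone names 720, Riken names 136 and other symbols 19. Of the clone names, 469 were on chromosome 5, 187 on chromosome 3, 36 on chromosome 6, 12 on chromosome 9 and only 3 on chromosome 1, where 420 of 477 models had Gm names. In a reference list of gene IDs and their current symbols, 1848 of the 1895 IDs were found, and 734 had another symbol there, among them all 714 clone names found, of which 630 became a Gm symbol. Ensembl gives gene numbers out roughly in the order in which models enter, and 1878 TEC models (99.1%) had a number from 102133 to 107390, near the highest of the whole file, 107392. The band of numbers counted was slightly wider, from just below 102133 up to 107392, and was again chosen after its values were seen. It held 5293 genes, of which 35.5% were TEC. Other classes in the band were concentrated on the same chromosomes. Sense intronic genes in the band lay on the 4 chromosomes in 92.6% of cases, against 35.9% outside the band, lincRNAs in 76.6% against 20.5%, antisense genes in 83.0% against 25.4% and processed pseudogenes in 82.8% against 19.7%. MiRNA genes did not share this, with 17.1% in the band and 18.7% outside it. Unprocessed pseudogenes lay there in 42.9% of cases in the band and 6.74% outside it, and protein-coding genes in 34.1% and 21.0%. TEC models showed no such contrast, with 76.3% on the 4 chromosomes in the band and 14 of 17 (82.4%, 59.0 to 93.8) outside it.

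TEC models sat inside coding genes, on the coding strand, far more often than lincRNAs. Of the TEC models, 869 overlapped a coding gene's span on its own strand by at least 1 base (45.9%, 43.6 to 48.1), against 227 of 239 sense intronic genes (94.98%), 17 of 212 single-exon lincRNAs (8.02%, 5.07 to 12.5) and 81 of 3413 lincRNAs (2.37%, 1.91 to 2.94). Another 249 (13.1%) lay only opposite such a span, and 777 (41.0%) overlapped none. Among models in any coding span, the same strand was used by 77.7% of TEC models (75.2 to 80.1), against 16.6% of lincRNAs (13.6 to 20.2). The biotype definitions bear on this comparison, since a lincRNA is by definition apart from coding genes and a sense intronic gene inside one.

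**Figure D4:**
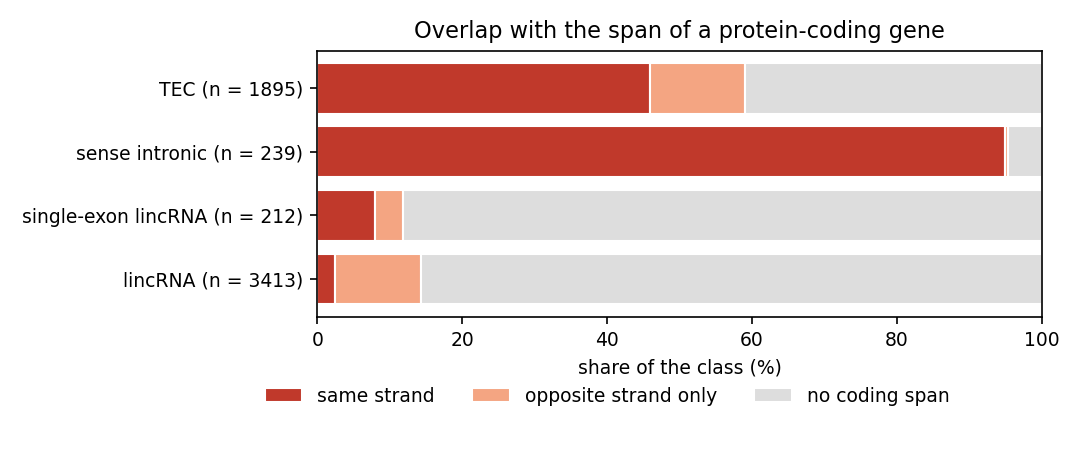
Share of each class in percent (x axis) that overlaps a protein-coding gene's span on the same strand, on the opposite strand only, or not at all, for TEC models and 3 classes of long non-coding genes (rows). TEC models, at 45.9% on the same strand, lie between sense intronic genes at 94.98% and lincRNAs at 2.37%.

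The same-strand share differed with the chromosome. It was 743 of 1446 (51.4%, 48.8 to 54.0) on chromosomes 1, 3, 5 and 9 and 126 of 449 (28.1%, 24.1 to 32.4) on the other sequences. By chromosome it was 56.0% on 1, 54.4% on 5, 45.6% on 3 and 38.9% on 9, and outside these 46.9% on 6 and 45.5% on 2, but 9.68% on 4 (3 of 31). Several-exon models made up part of the other sequences, where 87.8% of TEC models were single-exon, against 98.8% on the 4 chromosomes. Among single-exon models alone the shares were 51.9% on the 4 chromosomes and 32.0% on the other sequences. By name, the same-strand share was 53.3% for BAC clone names, 42.5% for Gm names and 33.8% for Riken names.

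Nearly all same-strand overlap was intronic. In 842 models (44.4% of all TEC models) no base touched an exon of the coding gene, and 27 (1.42%) shared exon bases with one. The intronic models had a median of 2217 bases and the 27 exon-sharing ones 2350, against 1838 for opposite-strand models and 1457 for models outside coding spans. A read from the unspliced RNA of the host gene has the same position and strand there as a read from the TEC model, and how reads were divided was not measured. On the opposite strand, 141 TEC models (7.44%) lay across a coding exon, which without strand information gives the same ambiguity. The labels do not say whether the libraries kept strand.

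The introns that held TEC models were very long. Taken once per TEC model, they had a median of 44340 bases with quartiles of 13851.5 and 128163 (n = 842 models). An intron with several models was thus counted several times. With each intron counted once, the median was 1322 bases for the 178241 introns of all coding genes. It was 2414.5 for the 6626 introns of the host genes themselves. A long intron also offers more sequence, and 50% of all intron bases of coding genes lay in introns of at least 21986 bases, or of at least 57487 bases in the host genes. The median TEC intron was above the first of these lengths and below the second. The TEC model filled a median of 4.69% of its intron. It lay in the first intron in 302 of 842 cases (35.9%, 32.7 to 39.2), and the first intron held on average 32.0% of the host's intron bases. For sense intronic genes the values were 43.4% and 32.8%.

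Within the intron, TEC models leaned towards the 5′ side. The midpoint lay at a median of 0.42 of the intron's length from its 5′ end, and 502 of 842 (59.6%, 56.3 to 62.9) lay in the 5′ part up to the middle, against 119 of 226 sense intronic genes (52.7%, 46.2 to 59.1). The interval from 90% to 100% of the intron held 29 models and the interval from 20% to 30% held 120. The share was 61.3% in first introns and 58.7% in later ones, and 57.4% (51.9 to 62.7) in the 317 hosts with a single intronic TEC model.

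**Figure D5:**
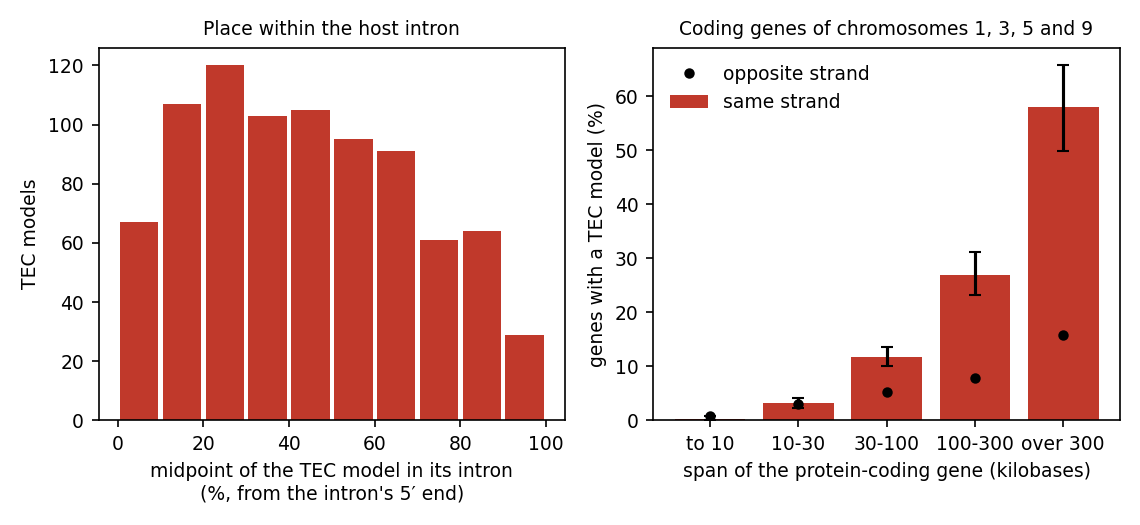
Left, number of intronic TEC models (y axis) by the place of their midpoint in the host intron in percent from its 5′ end (x axis, n = 842). Right, share of protein-coding genes on chromosomes 1, 3, 5 and 9 with a TEC model in their span (y axis, percent, bars for the same strand with 95% Wilson intervals, points for the opposite strand) by the span of the coding gene in kilobases (x axis); the same-strand share goes from 0.293% to 57.9%.

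The hosts were large genes. The 842 intronic models lay in 466 hosts, of which 317 held 1 and 149 held several. Kcnip4, which encodes a protein that binds potassium channels, held 23, all in the first intron. Auts2, a nuclear regulator of neuronal development, held 22, in 4 introns. Adgrb3, a brain adhesion receptor of the G protein-coupled type, held 19. These were followed by the protocadherin gene Pcdh7 with 13, the ankyrin gene Ank2 with 12 and Maml3, a co-activator of Notch signalling, with 10. Those 6 genes held 99 of the intronic models (11.8%). The Kcnip4 models were 388 to 4155 bases long, with a median of 2409, and summed to 48909 bases of a gene spanning 1135406. Host spans had a median of 109922 bases (n = 466), against 16345 in all coding genes. Where several coding genes contained a model, the one with the longest span was taken as host, a choice that favours long hosts. On chromosomes 1, 3, 5 and 9 a same-strand TEC model was found in 4 of 1363 coding genes of at most 10000 bases (0.293%), 153 of 1298 between 30000 and 100000 (11.8%) and 84 of 145 over 300000 (57.9%, 49.8 to 65.7). On the opposite strand the share was 15.9% over 300000 bases, 2.99% from 10000 to 30000, where the same-strand share was 3.13%, and 0.807% (11 genes) up to 10000. The same-strand interval up to 10000 bases was 0.114 to 0.752. No interval was computed for the opposite strand, so these shares of 11 and 4 genes are not told apart here.

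Another TEC model lay within 10000 bases on the same strand for 272 (14.4%, 12.8 to 16), against 13% of sense intronic genes (9.29 to 17.8) and 6.13% of single-exon lincRNAs (3.62 to 10.2), each counted within its own class, which for TEC is by far the largest. Within 2000 bases the order was the other way, with 4.22% of TEC models (3.41 to 5.22), against 5.02% of sense intronic genes (2.90 to 8.57) and 5.66% of single-exon lincRNAs (3.27 to 9.63), and the intervals overlapped. The TEC models formed 123 chains, of which 100 had 2 members, 20 had 3 and 3 had 4. The longest were Gm6934, Gm37593, Gm37266 and Gm37176 on chromosome 17, which covered 11497 of 30399 bases in no same-strand coding span, the first of them overlapping Satb1, a chromatin organiser gene, on the opposite strand, RP23-342M4.3 to RP23-342M4.6 inside Pclo, a large scaffold protein of the presynapse, and RP23-187D22.4 to RP23-187D22.7 inside Kcnip4.

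None of the 68 listed LPS-induced genes found in the annotation held a TEC model in its span. A same-strand TEC model lay in the span of 2.21% of all 22159 protein-coding genes (490) and an opposite-strand one in 1.11% (246), and on chromosomes 1, 3, 5 and 9 in 8.76% (409 of 4671) on the same strand. None of the 25 LPS-induced cytokine and chemokine genes found in the annotation, and none of 43 other LPS-induced genes, had one on either strand. By the rule of 3, that is 3 divided by 68 and not a Wilson limit, the 0 of 68 allows a share of up to 4.41%. It therefore cannot be told from the share over all genes. Those genes were short, with median spans of 3498 and 14676 bases, and 17 of the 68 were on the 4 chromosomes. None of 30 macrophage identity genes had one either, with 5 on the 4 chromosomes and a median span of 24156 bases.

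In the LPS receptor pathway, 3 of 39 genes held a same-strand TEC model (7.69%), against 2.21% of all coding genes. All 3 were among the 7 listed genes on chromosomes 1, 3, 5 and 9, where the share over all coding genes was 8.76%. No interval was computed for so few genes, so the list is not told apart from all coding genes here. Of the 3 genes, 2 are described here. The median span in that list was 34146 bases. RP23-167C5.1, at chr3:135650670-135654566 on the minus strand, was a block of 3897 bases in intron 6 of Nfkb1, the gene of the p105 precursor and p50 subunit of NF-kappaB. That intron has 28756 bases. Pik3ca, the gene of the p110 alpha catalytic subunit of phosphoinositide 3-kinase, held Gm37123, with 1171 bases in intron 15, which has 1592 bases. Gm37123 filled most of its intron, and RP23-167C5.1 a small part.

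Among genes of other cell types, 0 of 21 B cell genes had a same-strand TEC model, 3 of 25 T cell genes (12%) and 5 of 30 brain synapse and adhesion genes (16.7%), against 2.21% of all coding genes. Of the T cell genes, 11 were on the 4 chromosomes and 2 of these held one (18.2%), where the share over all coding genes was 8.76%. No interval was computed for so few genes, so the T cell list is not told apart from all coding genes here. The T cell genes were Lef1, a transcription factor, with RP24-176P19.6 (2258 bases), Icos, a co-stimulatory receptor, with Gm37039 (2485 bases), and Il2ra, the interleukin 2 receptor alpha chain, with Gm37881 (421 bases). On the opposite strand, Pax5, the B cell lineage factor, held 4930517J16Rik and 5730488B01Rik, and Cd247, the zeta chain of the T cell receptor complex, held Gm32999 and Gm37856. The brain genes were Kcnip4, Auts2, Ank2, Erbb4 and Lsamp on the same strand, and Nrxn3, Pcdh15, Kcnip4 and Zbtb20 on the opposite strand (4 of 30, 13.3%, against 1.11% of all coding genes). The list was chosen with earlier results of these data known and holds 3 of the top hosts, so its share restates them. That list had a median span of 1101100 bases, and 7 of its 30 genes were on the 4 chromosomes.

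Outside coding spans on their own strand, 80 TEC models (4.22%, 3.41 to 5.22) began within 5000 bases after the end of a coding gene on the same strand, against 9.43% of single-exon lincRNAs (6.19 to 14.1) and 2.90% of lincRNAs (2.39 to 3.52). These shares are over all models of a class, but a model in a same-strand coding span could not count. Such models were 45.9% of TEC models, 8.02% of single-exon lincRNAs and 2.37% of lincRNAs, so the classes are not compared on equal terms. Among the 80 TEC models, the median distance was 1464.5 bases and 31 lay within 1000. The closest was RP23-382L1.4, 3346 bases long, which began 9 bases past the annotated end of Spry1, an inhibitor of receptor tyrosine kinase signalling. RP24-404P10.8 (3603 bases) began 128 bases past Abcd3, a peroxisomal transporter gene, and RP24-168A7.7 (3132 bases) 194 bases past the chemokine gene Cxcl15. Before a coding start, 51 models ended within 5000 bases (2.69%). Another 51 were divergent, which here means that they began outside a coding gene, within 1000 bases of its start, and ran the other way. A model that began inside that coding gene was not counted as divergent from it, in any class. The divergent share was 2.69% (2.05 to 3.52), against 11.3% of single-exon lincRNAs (7.73 to 16.29) and 7.06% of lincRNAs (6.25 to 7.97). Here too a model in a same-strand coding span could not count, although the shares are over all models. The gap to the lincRNA classes therefore holds in part the larger share of TEC models in such spans. Of the divergent TEC models, AC158786.1 was the closest, 27 bases from Lcorl. Gm37785 was 55 bases from Iars2, a mitochondrial tRNA synthetase gene.

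Few TEC models shared exon bases with another gene on the same strand. There were 57 (3.01%, 2.33 to 3.88), against 5.02% of sense intronic genes (2.90 to 8.57) and 11.8% of single-exon lincRNAs (8.12 to 16.8), and 14 of them shared over 50% of their bases. The partner sharing most was a protein-coding gene in 26 cases and a model added from RefSeq or an unknown source in 16. Gm37397 on chromosome 6, with 2842 bases, lay wholly within exons of another model, most of all Pigy, a gene of the glycosylphosphatidylinositol anchor pathway. RP23-262J12.3 shared 1908 of 2466 bases (77.4%) most of all with Ppp1cb, a catalytic subunit of protein phosphatase 1. Kantr shared all 1477 bases with the added model 2900056M20Rik, and RP23-7E4.9 all 1007 with 1600023N17Rik, which is its current symbol. RP24-299A7.2 shared 309 of 1252 bases with Spp1, the osteopontin gene, and RP24-295A5.2 shared 484 of 993 with Hgf, the hepatocyte growth factor gene. The genes of this paragraph were chosen after their values were seen, and reads over shared bases cannot be assigned to 1 gene by position.

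RefSeq listed 76 TEC models under their ID, current symbol or own symbol (4.01%, 3.22 to 4.99), against 10.9% of sense intronic genes (7.53 to 15.5), 14.2% of single-exon lincRNAs (10.1 to 19.5) and 45.1% of lincRNAs (43.4 to 46.8). Of the 76, 75 overlapped their place in that table. RefSeq called 60 of them lncRNA, 8 protein-coding, 4 miscellaneous RNA, 2 pseudogene and 2 transcribed pseudogene. The 8 were Gm20172 and Gm9839 on chromosome 1, Gm37797 on chromosome 18, Flg on chromosome 3, RP23-149A1.6 (now Gm10461) and RP24-230J14.5 (now Gm42427) on chromosome 5, Gm33989 on chromosome 7 and Gm21379 on chromosome Y. Gm20172 (1551 bases) and Gm9839 (1437 bases) had the same start and end in both annotations. Flg, the gene of the skin barrier protein filaggrin, was a TEC model of 4523 bases at chr3:93273523-93278045 that shared 191 of them with a second model of the same name. Gm21379 (1955 bases) was the only TEC model whose exon carried reading-frame bases of a model added from RefSeq or an unknown source. That model, LOC100861987, placed 1698 CDS bases there, 86.9% of the TEC model.

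Of the 19 TEC models with other symbols, the first 10 by position were a mixed group. BC055308 (2538 bases) lay in intron 2 of Fam174a, WI1-1749A12.1 (2371 bases) in intron 2 of Wls, which carries Wnt proteins to the cell surface, and CH25-194I22.2 (5207 bases) in the first intron of Usp46, a deubiquitinase gene. AY702102 (1173 bases) and CH25-194I22.3 (750 bases) lay opposite a coding gene. AA914427 (1166 bases), WI1-49P9.1 (2353 bases), AC158786.1 (1123 bases) and AC108848.6 (2487 bases) lay in no coding span, and the tenth was Flg.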

How the data were processed

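The deposited file is a GTF annotation of 1544831 lines, of which 717200 place exons, and the values used are the deposited start and end positions, counted from 1. The score column held 0 values and 0 columns held values per sample, so no library was compared with another and no p-value was computed. Per the submitters' processing notes, TopHat2 2.1.1 and build mm10 were used; the making of the annotation is not described in the labels. Positions were read with Python 3.11.15, pandas 2.3.3, numpy 2.4.6 and scipy 1.17.1, and plotted with matplotlib 3.10.9.

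TEC models were taken by gene biotype. Overlap with the span of an Ensembl protein-coding gene needed 1 base, and the same strand took precedence over the opposite one. Intronic models touched no exon of any transcript of the host, which was the coding gene with the longest span where several contained the model. Introns were numbered in the host's longest spliced transcript or, where that one had no intron there, in another transcript. Neighbours were within 10000 bases, flanking positions within 5000 and divergent starts within 1000. A divergent start had to lie outside the coding gene, so overlapping starts were left out. Shares carry 95% Wilson intervals. Gene models are not replicates and were not sampled, so the intervals show counting error only. RefSeq windows and gene types came from tables of assembly GRCm38.p6. Tested on simulated, isolated coding genes with a single transcript each, the scripts placed 300 of 300 planted models correctly. Hosts with several transcripts, overlapping hosts, divergent starts, chains and RefSeq matches were not simulated.

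The members, the gene lists and the tests were chosen with earlier results of these data known. Named are the 3 longest, the 3 shortest and the 3 most exon-rich TEC models, the 3 hosts with most intronic models, the longest chain of neighbours with its ties, same-strand models in listed LPS or macrophage genes, up to 10 models with symbols of other forms by position, and the models that RefSeq lists as protein-coding. BAC clone names were counted apart from those other symbols. Any other gene in the text was picked with its value already known. Some models that this rule names are not reported here.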

Additional observations from a re-analysis of the deposited data

How the results depend on the processing

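Of 25 alternatives, 15 left their value within tolerance and 10 moved it, where tolerance for a count was 1.5 times and for a share its 95% interval. Distance limits moved the flanking and neighbour counts by construction. TEC models starting after a coding end were 2.59% within 2000 bases and 6.28% within 10000, against 4.22% within 5000. TEC models with a neighbour on the same strand were 4.22% within 2000 bases and 32.9% within 50000, against 14.4% within 10000. Exon sharing was 2.32% with Ensembl models only and 0.739% with over 50% of bases shared, against 3.01%. Matching to RefSeq by the symbol in the annotation alone gave 2.80%, against 4.01%. Chosen after seeing the data, the chromosomes other than 1, 3, 5 and 9 gave 28.1% in a same-strand coding span, against 45.9%, and 26.9% intronic, against 44.4%. Without BAC clone names, also chosen after seeing the data, 66.0% of TEC models were on the 4 chromosomes, against 76.3%. The cause of these last shifts, from settings chosen after seeing the data, was not tested. Counting genes by a TEC transcript gave 1935, since 40 genes of other biotypes, 26 of them processed transcripts and 7 protein-coding, hold a TEC transcript. The planned counts of polyadenylation signals and of A-rich sequence after the annotated end were not run, since they need a genome sequence. No paired analysis was possible because the annotation holds no measurement of any sample, and depth is likewise unknown.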
